A study of Mus musculus with 2 samples.

Results

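Ddit3-high tumour cells were the tumour cells with the most RNA of 3 stress-response genes, Ddit3, Trib3 and Atf4, in dissociated mouse tumours profiled by droplet single-cell RNA sequencing. They were chosen by the summed counts of these genes per 10,000 unique molecular identifiers (UMIs, each a tag for 1 captured RNA molecule) of a cell, as the top 10% of all tumour cells with both libraries pooled. This gave 1016 of 10154 tumour cells, among 21580 cell barcodes in all. A tumour cell was a cell with at least 500 detected genes and at most 10% mitochondrial UMIs that carried at least 4 UMIs of the keratins Krt8 and Krt18, at most 5 of the endothelial genes Cdh5, Egfl7 and Emcn and at most 15 of the fibroblast genes Dcn and Lum, each sum per 10,000 UMIs.

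The study compared 2 genotypes on the C57BL/6 strain, wild type (WT) and Cdh-cre Myct1 fl/fl, called the Myct1 knockout here. In the knockout, Cre recombinase is driven by the promoter of the endothelial cadherin gene (the series title spells the driver Cdh5-cre), so recombination is aimed at endothelial cells and not at tumour cells. Each genotype had 1 library, made from tumours of 4 mice that were pooled and then digested with DNase, dispase and collagenase. The sources used here do not give the tumour model, its site or the age of the mice. The labels give the source as endothelial cells, whereas 3619 of 7820 WT cells and 6535 of 8033 knockout cells that passed the quality filter met the tumour cell definition.

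With 1 library per genotype there was no test, and no p-value or standard error was computed. Levels are counts per 1000000 UMIs (CPM) of the UMIs summed over a set of cells, with exact Poisson 95% intervals, and log2 ratios carry exact conditional binomial 95% intervals. Intervals cover counting error only, not the spread between mice or libraries, and library and genotype cannot be told apart. A gene was counted as higher or lower where 2 levels differed by at least 1.5-fold, with at least 50 CPM in 1 of them and at least 20 UMIs in all. A gene can reach this floor through the side where it is high, so the count and the median of a list with low genes are shaped by the floor. Cells were chosen by Ddit3, Trib3 and Atf4, so the values of these genes describe the choice and support nothing.

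The integrated stress response is a shared answer of cells to amino acid shortage, misfolded protein in the endoplasmic reticulum (ER), haem shortage and double-stranded RNA. Its kinases phosphorylate the translation initiation factor eIF2, which lowers protein synthesis while the mRNA of the transcription factor ATF4 is translated more. ATF4 in turn induces Ddit3, which encodes the transcription factor CHOP, the pseudokinase Trib3, and genes of amino acid uptake, amino acid synthesis and tRNA charging. Tumour cells are known to use this response under poor blood supply, where oxygen and nutrients run short together.

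The median depth was 8725.5 UMIs per barcode in WT and 12921 in the knockout. In endothelial-gated cells, Myct1 reached 235 CPM (220 to 250) in WT, and the knockout table does not list it. That table lists no gene whose highest count in a barcode is under 4. In tumour cells Myct1 had 0.243 CPM in WT. The libraries shared 218 barcodes with a median of 689.5 UMIs in WT and 622 in the knockout. Of these, 46 WT and 43 knockout barcodes were tumour cells, 8 and 7 were Ddit3-high, and 1 was Ddit3-high in both. Without the shared barcodes, 20.04% of WT and 4.482% of knockout tumour cells were Ddit3-high, against 19.9% and 4.51% with them.

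The sequences just upstream of 4 genes are shown because the gene groups described below are known to be read through short promoter elements. Windows of 250 bases before the RefSeq transcription start, build GRCm38.p6, were searched on both strands for TGATGNAA, a form of the composite element bound by C/EBP and ATF factors, for the ER stress response element (CCAAT and CCACG set 9 bases apart), and for ACGTG, the core of the hypoxia response element. The last 2 motifs were chosen after the results had been seen. Capitals mark the matched letters, and each stretch is 5′ to 3′ on the strand of the gene and lies outside annotated GENCODE exons:
Chac1, chr2:119350999-119351106, plus strand: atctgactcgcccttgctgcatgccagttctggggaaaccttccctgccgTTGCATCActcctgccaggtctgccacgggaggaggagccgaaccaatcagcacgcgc
Herpud1, chr8:94386267-94386374, plus strand: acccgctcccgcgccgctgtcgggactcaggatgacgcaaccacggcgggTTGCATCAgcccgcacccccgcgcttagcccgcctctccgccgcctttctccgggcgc
Hsp90b1, chr10:86705588-86705694, minus strand: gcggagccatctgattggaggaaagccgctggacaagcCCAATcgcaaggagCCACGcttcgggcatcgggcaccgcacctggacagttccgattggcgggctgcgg
Bnip3, chr7:138909560-138909664, minus strand: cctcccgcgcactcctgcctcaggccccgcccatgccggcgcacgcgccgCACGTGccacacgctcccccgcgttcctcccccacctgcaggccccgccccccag

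Chac1 and Herpud1 carry the TGATGNAA letters on the opposite strand, starting 193 and 112 bases before the start. The motif was present in 9 of 33 windows of stress-response target genes (Asns, Atf3, Chac1, Fgf21, Herpud1, Jdp2, Nupr1, Slc7a11 and Vldlr), in 3 of 13 windows of tRNA synthetase genes, in 0 of 26 windows of ER chaperone genes, in 0 of 47 windows of hypoxia and glycolysis genes and in 3.45% of all 32851 windows. The ER stress response element was present in 9 of 26 ER chaperone windows, Hsp90b1 and Hspa5 among them, in 0 windows of the other lists searched and in 0.113% of all windows. ACGTG was present in 24 of 47 hypoxia and glycolysis windows, in 10 of 26 ER chaperone windows, in 11 of 33 stress-response target windows and in 16.6% of all windows; in Bnip3 the matches on the 2 strands overlap. The windows of Ddit3, Trib3 and Atf4 held none of these letters. A match is a description of the sequence and not a binding site.

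Ddit3-high cells made up 721 of 3619 WT tumour cells, which is 19.9% (Clopper-Pearson 95% interval 18.6 to 21.3), and 295 of 6535 knockout tumour cells, which is 4.51% (4.02 to 5.05). The median score over all tumour cells was 4.58 per 10,000 UMIs in WT and 2.65 in the knockout, while cells with a score under 1 were about as frequent in WT (17.3%) as in the knockout (16.8%). The lowest score of a member was 8.3877, the next cell outside had 8.3869, and 536 tumour cells lay within 10% of the threshold, so the members are the upper end of a range and not a type. The median depth of members was 14896 UMIs in WT and 12507 in the knockout, against 15802 and 16891 in the other tumour cells, and a member of the knockout had a median of 13 UMIs of the score genes. When each cell was thinned to 3000 UMIs, the shares were 24.7% in WT and 9.80% in the knockout. At that depth a member needed 3 UMIs of the score genes, and ties at this count put 15.02% of cells in the group. The WT share was above the knockout share in each of the settings tried that kept 1 threshold for both libraries, with less of a gap after thinning.

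**Figure D1:**
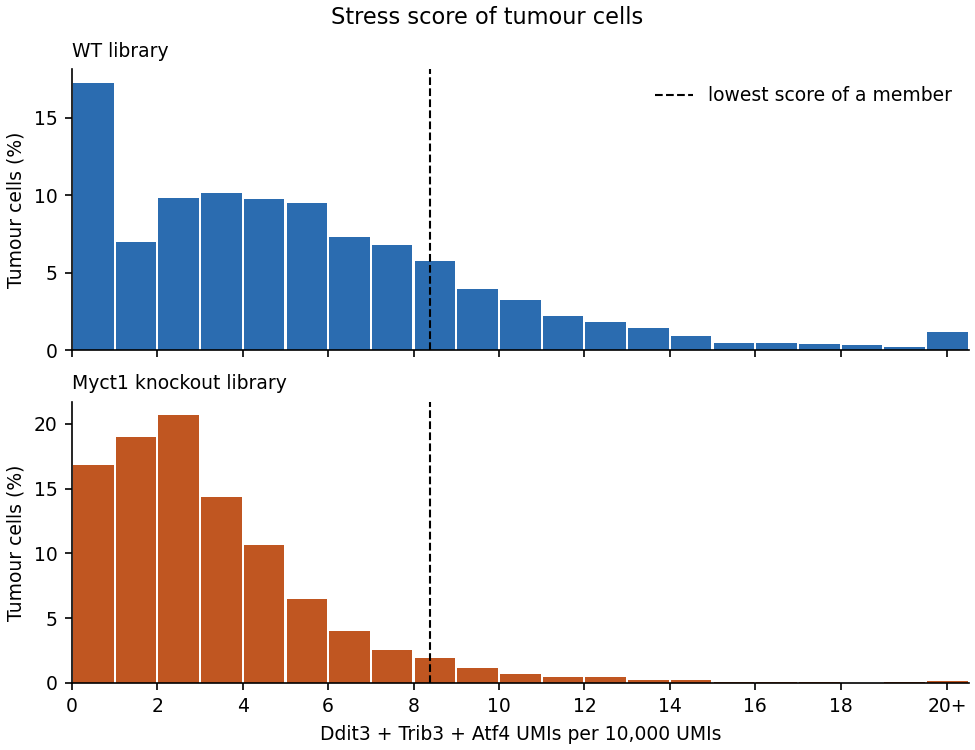
Share of tumour cells (percent, vertical axis) by the summed UMIs of Ddit3, Trib3 and Atf4 per 10,000 UMIs (horizontal axis, bins of 1, the last bin open) in each library. The dashed line is the lowest score of a Ddit3-high cell, 8.3877; 19.9% of WT and 4.51% of knockout tumour cells lie at or above it.

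Ddit3 reached 424 CPM (412 to 437) in WT members against 97.5 in the other WT tumour cells, and 407 CPM (387 to 428) against 70.2 in the knockout. Atf4 reached 652 CPM against 288 in WT and 641 against 207 in the knockout. Trib3 reached 74.8 CPM against 25.4 in WT and 51.9 against 15.8 in the knockout. Atf4 gave 56.6% of the score UMIs of WT members and 58.3% of those of knockout members, Ddit3 gave 36.9% and 37.0%, and Trib3 gave 6.503% and 4.72%. All 3 genes were detected in 51.5% of WT members and 36.9% of knockout members, and 4.99% and 11.5% were members on 1 of the 3 genes alone. CPM are not corrected for transcript length. In GRCm38 with GENCODE vM21, Ddit3 lies at chr10:127290774-127296288 on the plus strand, Trib3 at chr2:152337422-152344032 on the minus strand and Atf4 at chr15:80255184-80257541 on the plus strand. A second annotated gene with the symbol Ddit3 overlaps the first, and how the authors' counting treated it is not stated.

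Outside the tumour cells the score genes were lower than in the members. In endothelial-gated cells (549 in WT, 316 in the knockout) Ddit3 had 28.8 CPM in WT and 28.6 in the knockout, and in fibroblast-gated cells (2623 and 77) it had 52.6 and 51.7. Atf4 differed less from the other tumour cells, with 271 CPM in WT endothelial-gated and 262 in WT fibroblast-gated cells, below the 288 of the other WT tumour cells. In the knockout it had 243 and 290 CPM, above the 207 of the other tumour cells. Trib3 in endothelial-gated cells was near the other tumour cells (26.6 against 25.4 CPM in WT, 16.2 against 15.8 in the knockout). In fibroblast-gated cells Trib3 had 8.36 and 9.30 CPM. After thinning to 3000 UMIs, 63.6% of WT members and 58.7% of knockout members had a Ddit3 UMI, against 22.8% and 17.2% of the other tumour cells and 8.22% and 6.57% of endothelial-gated cells. Unthinned, these shares were 93.2% and 86.1%, 55.7% and 53.2%, and 16.8% and 18.4%, at median depths in endothelial-gated cells of 6374 and 7377 UMIs. The threshold of the score was reached by 5.28% of WT and 3.48% of knockout endothelial-gated cells and by 5.72% of WT and 6.49% (5 of 77) of knockout fibroblast-gated cells. The last share is above the 4.51% of knockout tumour cells.

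The members kept the keratin pair that defined the tumour cells, at lower levels than the other tumour cells. Krt18 had 683 CPM in WT members against 718 in the other tumour cells, and 752 against 941 in the knockout; Krt8 had 630 against 812 and 605 against 819. Epcam, an epithelial adhesion gene, had 0.451 CPM in WT members and 0.264 in knockout members, and Cdh1 had 1.90 and 1.85, so other defining epithelial genes were near 0, as Epcam (4.19 and 0.202 CPM) and Cdh1 (3.20 and 0.853) were in the other tumour cells. Vim, an intermediate filament gene of mesenchymal cells, had 2223 CPM in WT members and 2870 in knockout members. These levels describe the members and are not set against the other tumour cells. The 20 genes of the mesenchymal list summed to 11317 CPM in WT members against 16229 in the others, and to 12889 against 16885 in the knockout. The median log2 ratios of that list were -0.11 and 0.050.

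Summed marker levels of other cell types differed little for endothelium and macrophages and more for mural cells, fibroblasts and red blood cells. The 14 endothelial markers summed to 74.6 CPM in WT members and 75.7 in the other WT tumour cells, and to 79.6 and 71.3 in the knockout; Tek, Tie1 and Cldn5 were at 0 in knockout members. The 10 mural markers summed to 21.3 against 50.6 CPM in WT and 31.6 against 40.2 in the knockout. The 11 macrophage markers listed summed to 15.6 against 12.8 and 12.9 against 10.8, with C1qc at 0 in members of both libraries, and the lymphocyte markers listed (4 in WT, 2 in the knockout), Ptprc among them, were at 0 in members. The 12 fibroblast markers summed to 282 against 451 CPM in WT and 29.5 against 130 in the knockout. The red blood cell markers, haemoglobin genes among them, summed to 3.70 against 202 CPM in WT and 40.1 against 1.88 in the knockout. Lum, Pi16 and Dpt were at 0 in knockout members. The direction of the fibroblast median in WT turned after thinning and with smaller groups of members. Doublet-like cells made up 0.971% of WT members and 4.07% of knockout members, against 1.28% and 8.22% of the other tumour cells. Without them, 86 genes were higher in WT and 356 in the knockout. The median mitochondrial share was 4.15% in WT members and 4.25% in the other WT tumour cells, and 3.90% and 4.09% in the knockout. The part of red blood cell, mural and fibroblast RNA in the results was not tested.

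Beyond the genes that chose them, Ddit3-high cells of both libraries had more RNA of several known targets of the stress response, but not of all. In WT, 87 of 2884 genes compared (3.02%) were at least 1.5-fold higher than in the other tumour cells and 127 (4.4%) were lower. In the knockout, 294 of 2758 genes (10.7%) were higher and 217 (7.87%) were lower. Of 2577 genes compared in both, 68 were higher in both, 76 were lower in both, none was past the fold in opposite directions and 2157 had the same sign. The median log2 ratio over all genes compared was 0.050 in WT and 0.061 in the knockout. The score genes are among the genes counted, and the list counts below leave them out.

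Of 28 stress-response targets, 27 are listed in each table, and 16 in WT and 15 in the knockout had the level needed for a count. Of these, 6 were higher in WT and 7 in the knockout, beside 3.02% and 10.7% of all genes. None was lower, and the median log2 ratios were 0.52 in both libraries. Ppp1r15a, Herpud1, Ddit4, Cebpg and Vegfa were past the fold in both. Cebpb was past it in WT, and Slc7a1 and Slc38a2 in the knockout. Ddit4 and Vegfa also stand in the hypoxia list.

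Among the targets with enough level, Ppp1r15a had the largest ratio in both libraries. It encodes GADD34, the phosphatase subunit that removes the phosphate from eIF2. Its level was 143 CPM in WT members against 78.2 in the others (log2 ratio 0.87, 0.78 to 0.95), and 99.7 against 47.9 in the knockout (1.06, 0.90 to 1.21). Its constitutive counterpart Ppp1r15b had 101 against 69.7 CPM in WT and 91.5 against 43.0 in the knockout. Chac1, a glutathione-degrading enzyme gene, was too low for the count, with 23.6 CPM against 9.48 in WT and 21.6 against 7.43 in the knockout. Its ratios, 1.31 (1.09 to 1.54) and 1.54 (1.196 to 1.87), were the highest of the list in WT and, apart from Gdf15 with 3 UMIs in knockout members, in the knockout. Sesn2, an inhibitor of mTORC1 signalling, had 38.1 against 24.1 CPM in WT (0.66) and 32.7 against 15.6 in the knockout (1.07). Ddit4, another brake on mTORC1, had 73.9 against 45.9 CPM and 108 against 55.2.

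The amino acid transporter genes among the targets had ratios above 0 in both libraries, mostly under the fold. Slc38a2, which imports neutral amino acids, had 388 CPM in WT members against 273 (log2 ratio 0.50) and 382 against 220 in the knockout (0.79). Slc3a2, the heavy chain shared by several exchangers, had ratios of 0.54 and 0.52. Slc7a11, the cystine importer, had ratios of 1.04 and 0.97, at only 21.2 and 11.9 CPM in members. Slc7a1, the cationic amino acid importer, had 0.57 and 0.60. Slc7a5, a leucine exchanger, had 0.28 and 0.47, and Slc6a9, a glycine importer, had 0.49 and 0.53. Slc1a5, a glutamine importer of the serine and one-carbon list, had 0.39 and 0.27. Of those with the level needed for a count, Slc38a2 and Slc7a1 passed the fold in the knockout and none passed it in WT. Slc7a11 was past 1.5-fold in both libraries but too low for the count.

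The synthesis side of the same programme differed little. Asns, asparagine synthetase and a classical ATF4 target, had 157 CPM in WT members against 123 (log2 ratio 0.36, 0.28 to 0.43) and 112 against 102 in the knockout (0.14, 0.0018 to 0.28). None of 8 serine and one-carbon genes compared in WT and none of 7 in the knockout passed the fold, with medians of 0.24 in both. Mthfd2, a mitochondrial folate enzyme, was the highest in WT of the 4 named, with 154 CPM against 113 (0.45) and 126 against 102 in the knockout (0.30). Of the tRNA synthetases, none of 18 in WT and 2 of 15 in the knockout, Cars and Yars, were past the fold, beside 3.02% and 10.7% of all genes. The medians of this list were 0.26 and 0.24, and Yars turned in the knockout after thinning (-0.036). Cars had 84.5 against 59.8 CPM in WT and 75.9 against 48.1 in the knockout.

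Some targets were not higher in the members of 1 or both libraries. Atf3, a stress-induced transcription factor, had 105 CPM in WT members against 109 (log2 ratio -0.061, -0.15 to 0.031) and 187 against 199 in the knockout (-0.090). Nupr1, a stress-induced chromatin protein, had 766 against 812 CPM (-0.085) and 1247 against 1511 (-0.28). Trib1 had 141 CPM on both sides in WT and 155 against 131 in the knockout (0.24, 0.12 to 0.36). Cth, a transsulfuration enzyme, had a ratio of 0.45 in WT and -0.30 in the knockout. Fgf21 and Gdf15, which encode secreted stress hormones, had 2 and 0 UMIs in WT members and 1 and 3 in knockout members.

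**Figure D2:**
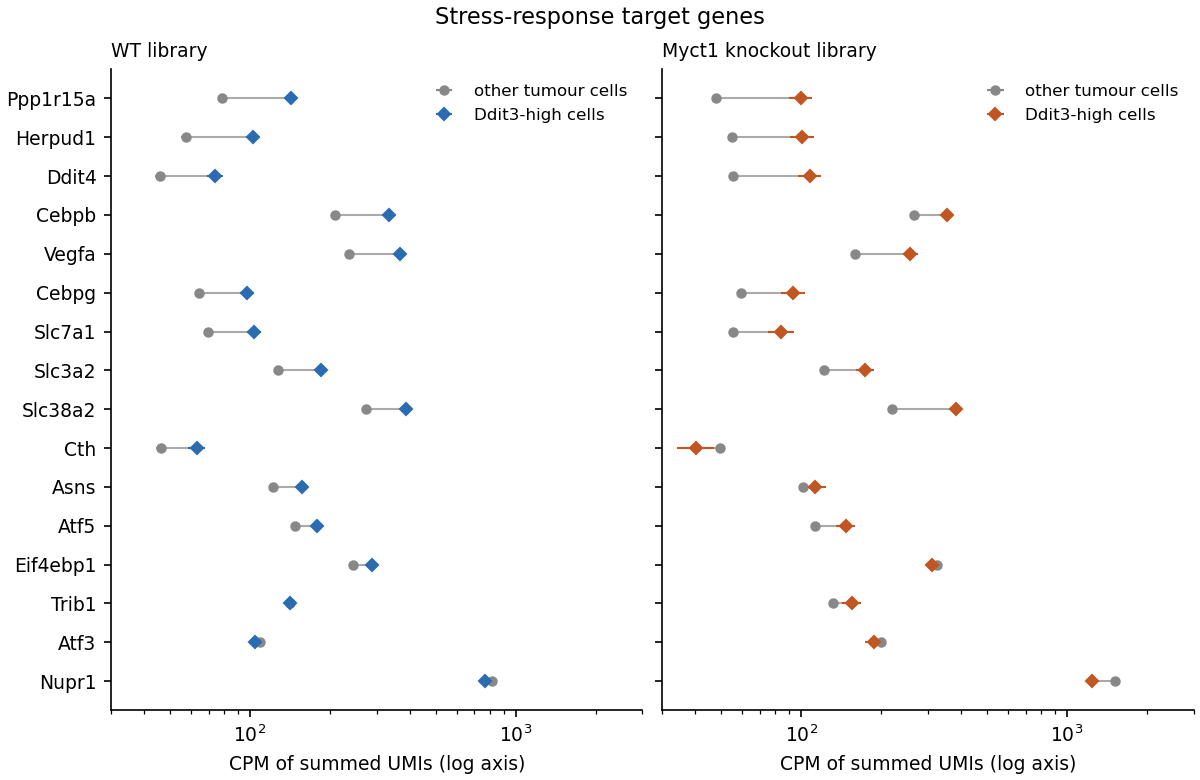
Level of each stress-response target that reached 50 CPM in members or others of WT (horizontal log axis, CPM of summed UMIs) in Ddit3-high cells (diamonds) and the other tumour cells (grey circles) of each library, ordered by the WT ratio. Bars are exact Poisson 95% intervals. Ppp1r15a and Herpud1 differ most in WT, and Atf3 and Nupr1 are not higher in members of either library.

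Genes of hypoxia and glycolysis were also higher in the Ddit3-high cells. Of 32 genes compared in each library, 18 in WT and 17 in the knockout were past the fold, none was lower, and the medians were 0.61 and 0.63. These shares stand beside the 3.02% and 10.7% of all genes that were higher. The genes of this list with the largest ratios in both libraries, given next, were not glycolytic enzymes. Ero1l, an ER oxidase induced by hypoxia and by CHOP, had 1462 CPM in WT members against 601 (log2 ratio 1.28, 1.26 to 1.31) and 857 against 341 in the knockout (1.33, 1.28 to 1.38). Ndrg1 had 490 against 231 CPM and 370 against 140. The glucose transporter Slc2a1 had 502 against 260 CPM and 391 against 172. The mitophagy receptor Bnip3 had 359 against 191 CPM and 319 against 141. Adm, the vasodilator adrenomedullin, had 111 against 57.1 CPM and 118 against 36.8.

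The glycolytic enzymes, named after their values were seen, were nearer to no difference. Gapdh had log2 ratios of 0.19 in WT and 0.048 in the knockout, Ldha had 0.30 and 0.13, Pgk1 had 0.44 and 0.19 and Eno1 had -0.051 and -0.22. Gpi1 and Pfkp were the exceptions, with 0.59 and 0.74 for Gpi1 and 0.60 and 0.73 for Pfkp. Several of these genes, Gapdh above all, have processed copies elsewhere in the genome that could share reads. Hif1a itself had 114 CPM in WT members against 106 and 88.9 against 79.6 in the knockout.

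The overlap with hypoxia was also counted per cell. Tumour cells were ranked by the summed UMIs of Slc2a1, Bnip3, Ndrg1, Ankrd37, Higd1a and Pdk1 per 10,000 UMIs, a set chosen after the results had been seen, and the top 10% over both libraries were called hypoxia-high. Of the Ddit3-high cells, 215 of 721 in WT (29.8%, 26.5 to 33.3) and 88 of 295 in the knockout (29.8%, 24.7 to 35.4) were hypoxia-high. In the other tumour cells the shares were 9.08% and 7.21%. Slc2a1, Bnip3, Ndrg1 and Ankrd37 of the set are also among the genes named by size as higher in members. The choice of the set thus fixes part of this difference. Read from the other side, 45.0% of hypoxia-high WT cells and 16.4% of hypoxia-high knockout cells were Ddit3-high. Most Ddit3-high cells, 506 in WT and 207 in the knockout, were thus outside the hypoxia-high set.

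The members inside and outside the hypoxia-high set were also set side by side. Ero1l, which is not in the set, had 2647 CPM inside against 871 outside in WT and 1487 against 598 in the knockout. Chac1 (18.4 inside and 26.1 outside in WT, 13.6 and 24.9 in the knockout), Sesn2 (30.1 and 42.1, 21.8 and 37.2) and the summed stress-response targets other than Ddit4 and Vegfa (2815 and 3531, 2951 and 3949) were higher outside. That sum was also higher outside in the other tumour cells (2556 and 2674 in WT, 2918 and 3392 in the knockout). It weighs abundant genes such as Nupr1 most, and the part of single genes in it was not tested. Not every target was higher outside. In WT, Ppp1r15a (151 and 139) and Herpud1 (107 and 99.9) were higher inside, while in the knockout they had 97.1 and 101, and 93.4 and 104. Of the genes that chose the members, and so as description only, Ddit3 had 518 CPM inside and 377 outside in WT, Trib3 had 54.5 and 85.0 and Atf4 had 639 and 658; in the knockout Ddit3 had 466 and 383 and Trib3 had 41.7 and 56.1. Median depths inside and outside were 17216 and 14252 UMIs in WT and 12514 and 12507 in the knockout.

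**Figure D3:**
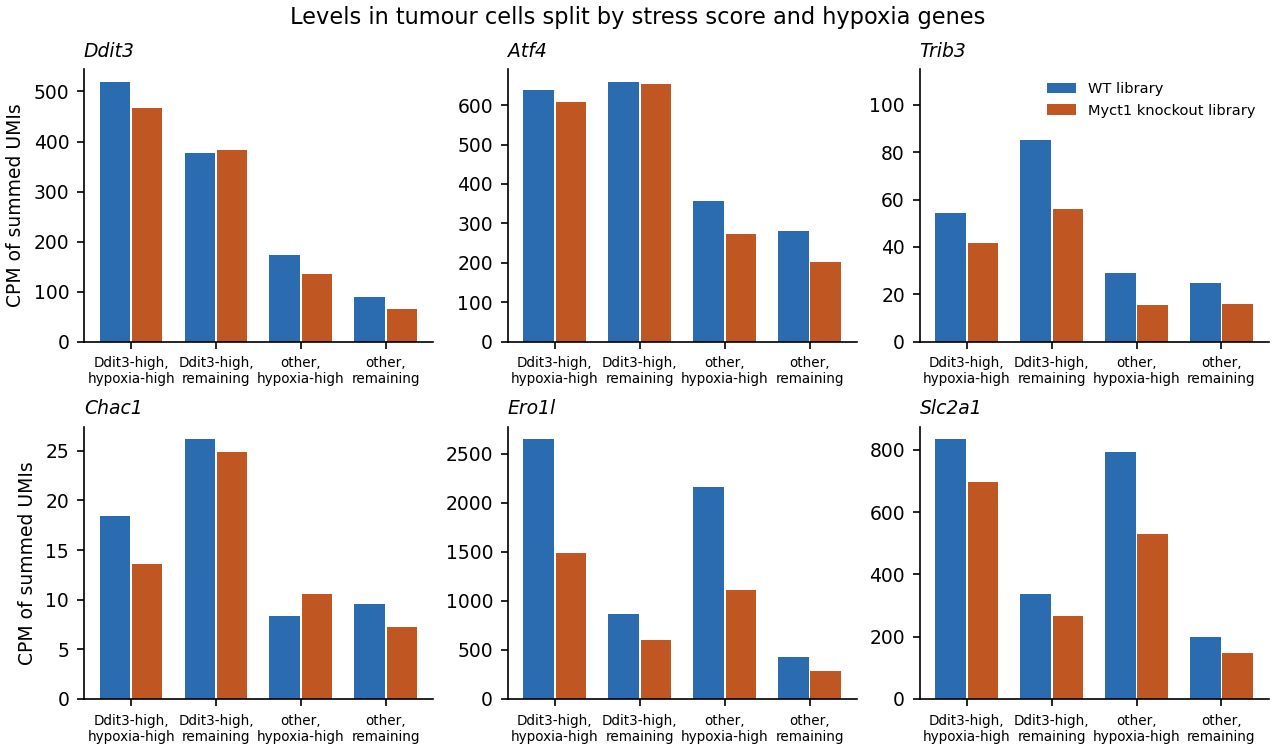
Levels of 6 genes (vertical axes, CPM of summed UMIs, from 0) in Ddit3-high and other tumour cells, each split into hypoxia-high and remaining cells, in both libraries. Slc2a1 is among the genes that define hypoxia-high cells. Ddit3, Atf4 and Trib3 chose the Ddit3-high cells, so their bars are description only. Chac1 is highest in Ddit3-high cells outside the hypoxia-high set, and Ero1l is highest inside it.

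When the other tumour cells were reweighted to the members' distribution over the hypoxia set, the stress-response median was 0.33 in WT and 0.40 in the knockout, and the hypoxia and glycolysis median was 0.068 and 0.11. The number of genes higher in members was then 11 in WT and 98 in the knockout, and the number lower was 8 and 30. All 6 genes matched on are in the hypoxia list, and 4 of them (Slc2a1, Bnip3, Ndrg1 and Ankrd37) are among the genes named by size, so the matching itself fixes part of that fall. Adm in WT (-0.021) and Ankrd37 in the knockout (-0.014) lost their direction. Of the 25 genes named by size, 4 in WT and 16 in the knockout stayed past the fold. Among cells outside the hypoxia-high set, Chac1 was 26.1 CPM in WT members against 9.60 in the others and 24.9 against 7.21 in the knockout, and Herpud1 was 99.9 against 55.7 and 104 against 54.6.

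Of the ER chaperones and ER stress genes, 4 of 23 compared in WT and 5 of 22 in the knockout were past the fold, beside 3.02% and 10.7% of all genes. None was lower, the others did not pass, and the median was 0.31 in both. Hspa5, the chief chaperone of the ER lumen (BiP), had 1495 CPM in WT members against 884 (log2 ratio 0.76, 0.73 to 0.78) and 1112 against 629 in the knockout (0.82, 0.78 to 0.87). Dnajb9, a co-chaperone, had 0.69 and 0.71, and Crebrf, a regulator named in this list, had 0.65 and 1.11. Ero1l was the remaining gene past the fold in both. Xbp1, the transcription factor of the IRE1 branch, was past it in the knockout (124 against 72.2 CPM, 0.78) and had 148 against 104 CPM in WT (0.51). Hsp90b1 had 1197 against 880 CPM (0.44) and 964 against 764 (0.34). Herpud1, an ER degradation component counted with the stress-response targets, had 102 against 57.4 CPM (0.83) and 101 against 54.9 (0.88). By contrast Pdia3 (-0.060 and -0.19) and Pdia4 (0.19 and -0.12), protein disulfide isomerases named after their values were seen, were close to no difference.

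The genes that set the eIF2 switch and carry out CHOP-linked death gave small counts. Of 6 eIF2 pathway genes compared, 1 in WT and 3 in the knockout (Ppp1r15a, Ppp1r15b and Ppp1cb) were past the fold, beside 3.02% and 10.7% of all genes. The medians of this list were 0.24 and 0.56. The kinase gene Eif2ak3 (PERK) had 8.13 CPM in WT members and is not listed for the knockout. Of 3 CHOP-linked death genes with enough level, Ero1l was higher in both libraries. The pore-forming Bax had 125 CPM against 175 in WT (log2 ratio -0.48) and 144 against 240 in the knockout (-0.74, past the fold), and the survival gene Mcl1 had ratios of 0.14 and 0.26.

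Of other stress programmes, few genes were past the fold. The p53 targets had medians of 0.025 and 0.31, with Gadd45a, a stress gene also known to respond to ATF4, the gene past the fold in both (96.2 against 55.6 CPM in WT, 72.8 against 36.2 in the knockout). Cytosolic heat shock genes had medians of 0.081 and 0.12, and Hspa1a, which has a near-identical copy that could share its reads, was lower in both (42.6 against 81.0 CPM and 74.9 against 119). Oxidative stress genes had medians of -0.11 and -0.013, with Gclc, which makes glutathione, past the fold in both (0.61 and 0.82). Autophagy genes had medians of 0.061 and 0.052, with the cargo receptor Sqstm1 at 0.46 and 0.60 and Map1lc3a lower (-0.74 and -0.75). Immediate early genes, often raised by tissue digestion, had medians of -0.0035 and 0.088, and Btg1 was the one past the fold upward in each (0.59 and 0.70). Mitochondrial stress genes had medians of 0.16 and -0.0099. MHC class I genes had -0.37 and -0.19, cholesterol synthesis -0.17 and -0.23, and secreted inflammatory genes -0.20 and -0.29. Malat1, a long RNA kept in the nucleus, had 10889 against 8360 CPM in WT and 8934 against 7663 in the knockout.

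**Figure D4:**
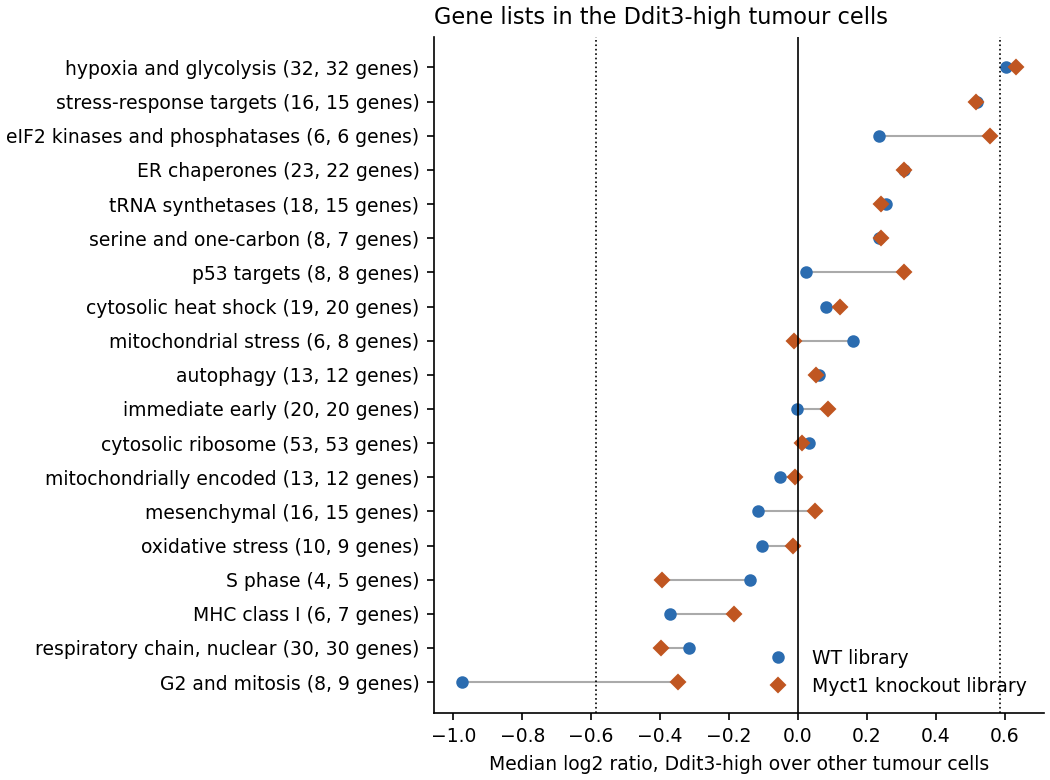
Median log2 ratio of Ddit3-high over other tumour cells (horizontal axis) for 19 gene lists, with the number of genes compared in WT and in the knockout. Circles are WT and diamonds the knockout, and dotted lines mark 1.5-fold. Hypoxia and glycolysis has the highest medians (0.61 and 0.63), and the nuclear respiratory chain and G2 and mitosis lists lie below 0 in both libraries.

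On the lower side stood nuclear genes of respiration and genes of cell division. All 30 nuclear genes of the respiratory chain were compared, and 4 in WT and 5 in the knockout were lower, beside 4.4% and 7.87% of all genes. None was higher, and the medians were -0.32 and -0.40. Over the settings tried the medians lay between -0.42 and -0.13 in WT and between -0.46 and -0.15 in the knockout. Ndufc1, a complex I subunit, had 97.8 CPM in WT members against 160 and 116 against 215 in the knockout. Sdhb, a complex II subunit, had 57.9 against 88.3 and 70.1 against 133. Mitochondrially encoded genes had medians of -0.053 and -0.0090, and cytosolic ribosomal proteins 0.033 and 0.013.

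The 34 genes of G2 and mitosis summed to 561 CPM in WT members against 1140 in the other tumour cells, and to 996 against 1211 in the knockout. Only 8 genes in WT and 9 in the knockout had the level needed, several of them through the other tumour cells alone. Of these, 5 and 3 were lower, beside 4.4% and 7.87% of all genes, with medians of -0.98 and -0.35 that the floor pulls down. Birc5 (survivin) had 14.99 CPM in WT members against 53.5 and 30.6 against 70.8 in the knockout. Top2a, a DNA topoisomerase of dividing cells, had 29.6 against 88.9 in WT and 58.0 against 73.8 in the knockout. The difference between libraries was not tested, and the knockout median was 0.081 when the other cells were reweighted to the members' depth. When the others were matched on cell cycle genes, 57 genes in WT and 281 in the knockout were still higher, and the stress-response medians were 0.46 and 0.50.

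Of the genes named by the size of their ratio in both libraries, the first 15 that were higher held Ero1l, Ndrg1, Adm, Slc2a1, Bnip3, Ankrd37 and Ppp1r15a from the lists and 8 others. Itpk1, an inositol phosphate kinase, had 175 CPM in WT members against 73.5 (log2 ratio 1.25) and 123 against 34.8 in the knockout (1.82). Tnfrsf9, the co-stimulatory receptor 4-1BB, had 178 against 92.3 CPM and 149 against 71.7. Smox (spermine oxidase), Nr1d1 (a circadian repressor), Dusp4 (a MAP kinase phosphatase), Atp6v1b2 (a proton pump subunit), the microRNA host gene Mir17hg and Yam1 completed the 15, with WT ratios from 0.84 to 0.88. Yam1 had 3037 against 1688 CPM in WT and 1214 against 466 in the knockout.

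The 10 that were lower were Mgst3, Pcolce, Mgp, Birc5, Sparc, Dbi, S100a1, Pdlim2, Stmn1 and Prdx4. Sparc, a secreted matrix protein, had 100 CPM in WT members against 220 and 99.9 against 224 in the knockout. Mgst3, a microsomal glutathione transferase, had 16.4 against 61.7 and 26.4 against 76.0. Stmn1, a microtubule destabiliser, had 85.2 against 201 and 144 against 282. Of the mesenchymal list, 3 of 16 genes compared were lower in WT with a median of -0.11, and in the knockout 4 of 15 were lower and 1, Zeb2, was higher with a median of 0.050. Of all genes compared, 4.4% in WT and 7.87% in the knockout were lower. From the mesenchymal list S100a4 (1344 against 3442 CPM in WT, 1827 against 3392 in the knockout) and Lgals1 (2198 against 4183, 2638 against 4708) were lower in both, as was S100a6 of the keratin and epithelial list (5004 against 8952, 6064 against 10604).

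Transcript length moved with these differences. Genes with a longest transcript under 1000 bases had a median log2 ratio of -0.19 in WT and -0.30 in the knockout, and genes of 4000 to 8000 bases had 0.14 and 0.28. Genes of 1000 to 2000 bases, with Ndufc1 (1249) and Sdhb (1232) among them, had -0.081 and -0.21. Ratios relative to genes of like length gave stress-response medians of 0.44 and 0.41, hypoxia and glycolysis medians of 0.51 and 0.53, and 63 genes higher in WT and 151 in the knockout. All 25 genes named by size, which were picked for large ratios in these same data, stayed past the fold in both libraries. Yam1, one of them, had no known length and was set against the other genes without a length. The part of length in the counts was otherwise not tested.

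Levels were also followed over bins of the score within each library. In WT, cells ranked in the lower 50% by score had 10501 CPM of hypoxia and glycolysis genes, those from the 80th to the 90th percentile had 15493 and the top 1% had 20327. In the knockout these sums were 12208, 13915 and 16512. ER chaperone genes went from 5489 to 10075 CPM in WT and from 5123 to 7034 in the knockout between the lowest and the highest bin, with 10270 CPM in the WT bin just below the highest. Stress-response targets had 2658, 3324, 3653, 3795, 3820 and 4153 CPM over the 6 WT bins. In the knockout they had 3320, 3700, 4257, 3843, 4010 and 4328, so the level did not go up at each step. Such sums weigh abundant genes most. Nupr1, which was not higher in members, gave 766 of 3732 CPM in WT members and 1247 of 4024 in knockout members, and its part over the bins was not tested. The respiratory chain went down from 12555 to 8404 CPM in WT and from 13873 to 10037 in the knockout. Chac1 had 6.41 CPM in the lowest WT bin, between 13.5 and 22.9 in the next 4 and 61.3 in the highest. In the knockout Chac1 went from 4.22 to 24.99 with a dip, from 15.6 to 13.0, at the 90th percentile. Median depth was 13876 UMIs in the lowest and 7295 in the highest WT bin, which holds 37 cells, and 16517 and 8344 in the knockout, whose highest bin holds 66 cells.

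**Figure D5:**
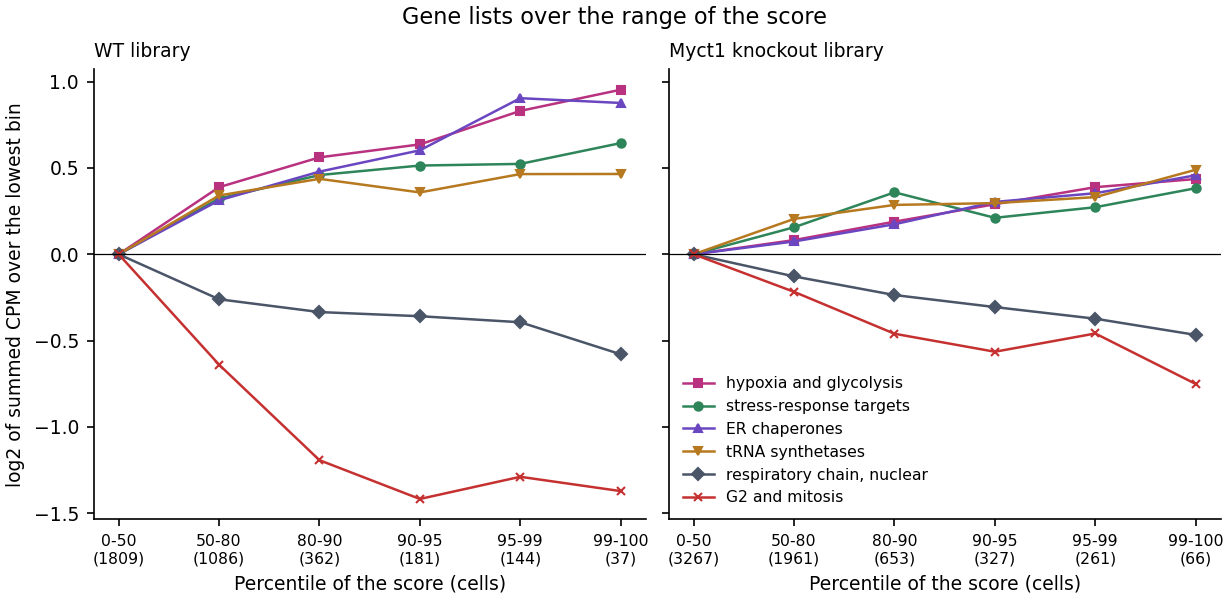
Summed CPM of 6 gene lists relative to the lowest bin (log2, vertical axis) over bins of tumour cells ranked by the score within each library (horizontal axis, percentiles with the number of cells). Hypoxia, ER chaperone and stress-response lists lie above 0 in every higher bin, and the respiratory chain and mitosis lists lie below 0.

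Between the libraries, Ddit3-high cells differed most in interferon-induced genes and collagens, which also differed in the other tumour cells. They differed little in the stress-response and hypoxia lists. Both lists were higher at higher scores, so this closeness is not independent of the common threshold that chose the members. With members chosen within each library, the medians of knockout over WT were -0.24 for the stress-response list and -0.27 for the hypoxia list. Of 2842 genes listed in both tables and compared within members, 69 (2.43%) had a level in the knockout at least 1.5 times that in WT and 75 (2.64%) were lower, and the median log2 ratio of knockout over WT over all of them was -0.083. These ratios were taken over genes shared by both tables. Since members had passed a common threshold, Ddit3 (log2 ratio -0.062) and Atf4 (-0.027) were nearly level, and Trib3 was lower in the knockout (-0.53, -0.76 to -0.30). Over all tumour cells, which no threshold on the score had chosen, Ddit3 was 161 CPM in WT and 81.3 in the knockout (-0.99), Trib3 35.1 and 17.0 (-1.05) and Atf4 360 and 222 (-0.70). The stress-response targets had a median of -0.046 within members, -0.11 in the other tumour cells and -0.23 in all tumour cells, against -0.083, -0.10 and -0.12 over all genes.

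Within members, single targets differed in both directions. Atf3 was 105 CPM in WT and 188 in the knockout (log2 ratio 0.83, 0.70 to 0.97), and Nupr1 was 769 and 1250 (0.70). Vldlr (-1.195), Slc7a11 (-0.84) and Slc7a5 (-0.66) were lower in the knockout, as was Asns (158 and 113 CPM, -0.49). These differences were also seen in the other tumour cells, where Atf3 had 0.86, Nupr1 0.89, Vldlr -1.07, Slc7a11 -0.77, Slc7a5 -0.85 and Asns -0.27. The 32 hypoxia and glycolysis genes had a median of -0.099 within members, with none higher and 1 lower in the knockout, beside 2.43% and 2.64% of all genes. In the other tumour cells their median was -0.19, with 3 higher and 5 lower. Over all tumour cells it was -0.32, with 1 higher and 9 lower.

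Interferon-induced genes were higher in the knockout members. The chemokine gene Cxcl10 had 7.62 CPM in WT members and 85.7 in knockout members (log2 ratio 3.49, 3.14 to 3.86). Ifit1 had 9.80 and 70.1 CPM, Ifit3 8.80 and 51.6, and Isg15, a ubiquitin-like protein, 33.7 and 160. The whole list summed to 414 CPM in WT members (31 genes listed) and 1301 in knockout members (32 listed), and to 503 and 1076 in the other tumour cells. Only 7 of its 33 genes had the level needed, mostly through the knockout, so their all being higher, with a median of 2.24, was shaped by the floor. That median ranged down to 0.552, when the ratio in the other tumour cells was subtracted. Subtracting the ratio in the other tumour cells left Cxcl10 at 0.63, Ifit3 at 0.012, Isg15 at 0.34 and Ifit1 at 1.26. Gbp2 (1.61), Xaf1 (1.52), Ly6a (1.54) and the mitotic Ube2c (2.22, against 0.39 in the other tumour cells) were the others named as higher.

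Lower in the knockout were the collagen genes Col1a2, at 67.7 CPM in WT members and 0.793 in knockout members with 3 UMIs (log2 ratio -6.42, -8.70 to -4.86), and Col3a1, at 80.8 and 16.1. Both collagen genes were also lower in the knockout in the other tumour cells, Col1a2 at 89.7 and 15.2 CPM (-2.56) and Col3a1 at 146.7 and 71.6 (-1.035). These are fibroblast genes, and the WT library held 2623 fibroblast-gated cells against 77 in the knockout; their part in this difference was not tested. Tnc (586 and 278 CPM), Cx3cr1 (113 and 42.3), Stxbp2 (51.7 and 14.5), Yam1 (3051 and 1218), Rn7sk (53.1 and 24.1) and Erdr1 (1201 and 686) were the other genes named as lower. Yam1 and Erdr1 were at least as much lower in the other tumour cells (-1.86 and -0.90), and Tnc (-0.97) and Rn7sk (-1.13) nearly as much as in members. Cx3cr1 (-0.32) and Stxbp2 (-0.15) differed less there.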

How the data were processed

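Single-cell RNA was measured in 1 WT and 1 Myct1 knockout library. The authors deposited UMI counts per gene and barcode with no normalisation, made with Cell Ranger 2.1.1 on mm10, per the submitters' processing notes. Which annotation they counted on is not stated there. Rows with totals were dropped, repeated symbols (2 in WT, 1 in the knockout) were added up, and the tables held 115519153 and 145331950 UMIs over 10505 and 9664 genes, of which 9127 were shared. Counts were summed over cells and set against each other as CPM, by size only, since cells are not replicates. Doublets were scored against simulated pairs of cells (threshold 0.3) and kept, except in an alternative. The members and gene lists were chosen with earlier results of these data known. Genes were named by rule: with at least 50 CPM in both libraries, the 15 higher and 10 lower with the largest smaller ratio, up to 4 per list, every stress-response target, and 8 per direction between libraries, without predicted symbols. The computation was tested on simulated data. Alternatives covered the depth, the score, the cell filters, doublets, the size of the group, the scaling and the level floor, and 5 were added after seeing the data. Transcript lengths and exons came from GENCODE vM21 (GRCm38, the same assembly as mm10). Computations used pandas 2.3.3, scipy 1.17.1, matplotlib 3.10.9, scikit-learn 1.9.0 and numpy 2.4.6 under Python 3.11.15.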

Additional observations from a re-analysis of the deposited data

How the results depend on the processing

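No paired analysis was possible because each genotype had 1 library, so no replicate could be left out either; each library is given on its own. Against the other tumour cells, the 25 genes named by size kept their direction in both libraries under all settings run except the reweighting on hypoxia genes, where 24 did. The 25 genes were picked for large ratios in these same data, and the floor settings leave a ratio unchanged. Their kept direction is thus a description and not an independent check. In what follows, pairs of gene counts are those at least 1.5-fold higher and lower, medians are log2 ratios of the stress-response (ISR) or hypoxia list, and the cause of a move was not tested. Thinning to 3000 UMIs gave shares of 24.7% (WT) and 9.80% (knockout), counts of 162 and 76 in WT, 91 and 44 in the knockout and 173 and 329 between libraries, hypoxia medians of 0.50, 0.32 and -0.32, and ISR medians of 0.36 (knockout) and -0.19 (between libraries). It turned the WT medians of interferon (0.11) and fibroblast genes (0.42), the cholesterol median between libraries (0.039) and, in the knockout, Stc2 (-0.40), Vldlr (-0.73) and Yars (-0.036). Scoring on Ddit3 and Trib3 alone gave shares of 17.7% and 5.77%, a WT ISR median of 0.36, knockout counts of 104 and 110, and between libraries 118 and 183 with a hypoxia median of -0.23. Scoring on Atf4 alone gave WT counts of 48 and 63 and a WT hypoxia median of 0.45, and turned Gdf15 (-0.018) and Hspa1a (0.096) in the knockout. A mitochondrial limit of 5% turned Stc2 (-0.063) there.

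Taking the top 5% gave shares of 10.4% and 2.01% (2.005), 485 genes higher in the knockout, 113 lower between libraries with a hypoxia median of -0.22, and a WT fibroblast median of 0.14. The top 20% gave shares of 35.6% and 11.35%, a WT ISR median of 0.62, knockout counts of 131 and 93 and a knockout hypoxia median of 0.51. Choosing 10% within each library fixed the shares at 10% and 10.01% and gave knockout counts of 162 and 133, between libraries 132 and 229 with medians of -0.24 (ISR) and -0.27 (hypoxia), and a WT fibroblast median of 0.18. Weighting cells equally gave 281 genes higher and an ISR median of 0.75 in WT. Matching depth turned the knockout mitosis median (0.081). Ratios relative to the median gene gave 107 and 42 between libraries. A floor of 20 CPM gave 152 and 277 in WT, 700 and 382 in the knockout, and 157 and 229 between libraries with an ISR median of -0.22 and a cholesterol median of 0.032. No floor gave 318 and 1157, 1098 and 914, and 415 and 572, with an ISR median of -0.22 between libraries. Subtracting the ratio in the other tumour cells left 40 and 10, a hypoxia median of 0.048, an eIF2 pathway median of 0.24, Yam1 at 0.53 and Erdr1 at 0.097.

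Settings added after seeing the data moved further values. Cells of 5000 UMIs or more gave a WT share of 21.4%. Reweighting the others on hypoxia genes gave 11 and 8 in WT and 98 and 30 in the knockout, a WT ISR median of 0.33, hypoxia medians of 0.068 and 0.11, Adm at -0.021 in WT and Ankrd37 at -0.014 in the knockout. Reweighting on cell cycle genes gave 57 and 79 and a hypoxia median of 0.51 in WT, and mitosis medians of 0.13 and 0.23. Ratios relative to genes of like length gave hypoxia medians of 0.51 and 0.53, 151 genes higher in the knockout and 34 lower between libraries.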
